A study of Mus musculus with 9 samples.

Results

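The genes described here are the chains of collagen and laminin, the proteins that form the fibrils and sheets outside cells. They were taken by symbol from the count tables: names made of Col, a type number, the letter a and a chain number, and names made of Lam, the letter a, b or c and a chain number. The rule found 55 of the 33233 genes listed, 44 collagens and 11 laminins. RNA with a poly(A) tail had been sequenced as strand-specific libraries from mouse KH2 embryonic stem cells. KH2 is an embryonic stem cell line that carries a docking site for transgenes downstream of Col1a1 and a tetracycline-dependent transactivator at the Rosa26 locus, and all groups shared this background. All groups also shared growth with Lif on feeder cells, which were taken off the cultures before lysis. The 3 groups were wild type, cells labelled CBFA2T2 knockout and cells labelled PRDM14 knockout, with 3 libraries each. CBFA2T2 is a co-repressor, and PRDM14 is a DNA-binding protein active in pluripotent cells and germ cells. The series calls the libraries of a group biological replicates but does not say whether they were clones or parallel cultures, and gives no batch or date, so p-values measure only the spread between these libraries.

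A collagen is built from 3 chains wound into a triple helix. The fibrillar collagens, with Col1a1, Col1a2, Col3a1, Col5a1 and Col5a2 as the usual set of fibroblasts, form the rope-like fibrils of connective tissue. Type IV collagen instead forms the net of basement membranes, together with laminins, which are cross-shaped molecules of an alpha, a beta and a gamma chain. In the early embryo the extraembryonic endoderm secretes much type IV collagen and the laminin made of Lama1, Lamb1 and Lamc1, and pluripotent cells are known to make laminin with the Lama5 chain.

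Total counts were 10309196 to 20129490 per library. Levels are given as CPM, counts per 1000000 counts of the genes kept for testing after scaling between libraries, and library values stand in the order of replicates 1, 2 and 3. Cbfa2t2 was lower in the libraries labelled CBFA2T2 knockout (76.3 ± 28.1 CPM against 168 ± 8.69, mean and SD of 3, log2 fold change -1.14, adjusted p = 0.00753). Against its label, the PRDM14 knockout had more Prdm14 RNA than wild type (49.0 ± 12.5 CPM against 16.0 ± 2.12, log2 fold change 1.61, adjusted p = 3.46e-05). These libraries are therefore called PRDM14-labelled, and every direction drawn from them rests on that label. The summed level of 6 pluripotency genes was 2904 to 3047 CPM in wild type, 1559 to 1897 in the CBFA2T2 knockout and 2004 to 2290 in the PRDM14-labelled libraries. Of these 6 genes 5 fell and 1 rose in the CBFA2T2 knockout, and 4 fell and 1 rose in the PRDM14-labelled libraries.

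Both type IV genes that rose in each knockout-labelled group, Col4a1 and Col4a2, start next to each other on opposite strands, so their start regions are shown first. Those of Lama5, the laminin chain with the smallest adjusted p against wild type, and of Col6a5, the collagen with the largest fall, follow. Each run spans 250 bases before to 50 bases after the annotated start and is taken from RefSeq on GRCm38.p6, read 5′ to 3′ on the strand of the gene. Capitals mark matches, on either strand, to CCAAT, to the GC-box letters GGGCGG and to the E-box letters CANCTG, and no base lies in 2 of these motifs.
Col4a1, chr8:11312777-11313076, minus strand: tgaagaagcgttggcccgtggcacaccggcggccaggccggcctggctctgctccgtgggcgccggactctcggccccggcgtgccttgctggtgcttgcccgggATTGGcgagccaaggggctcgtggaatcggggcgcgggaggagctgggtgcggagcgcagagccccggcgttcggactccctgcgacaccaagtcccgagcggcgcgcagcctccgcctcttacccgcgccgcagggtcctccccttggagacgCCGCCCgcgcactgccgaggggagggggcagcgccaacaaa
Col4a2, chr8:11312555-11312854, plus strand: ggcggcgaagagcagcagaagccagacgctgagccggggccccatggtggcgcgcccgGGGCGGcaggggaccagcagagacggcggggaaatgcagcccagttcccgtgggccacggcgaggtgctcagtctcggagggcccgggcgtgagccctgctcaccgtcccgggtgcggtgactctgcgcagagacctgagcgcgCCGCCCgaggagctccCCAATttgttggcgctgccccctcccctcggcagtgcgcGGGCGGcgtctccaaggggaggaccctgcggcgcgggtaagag
Lama5, chr2:180225810-180226109, minus strand: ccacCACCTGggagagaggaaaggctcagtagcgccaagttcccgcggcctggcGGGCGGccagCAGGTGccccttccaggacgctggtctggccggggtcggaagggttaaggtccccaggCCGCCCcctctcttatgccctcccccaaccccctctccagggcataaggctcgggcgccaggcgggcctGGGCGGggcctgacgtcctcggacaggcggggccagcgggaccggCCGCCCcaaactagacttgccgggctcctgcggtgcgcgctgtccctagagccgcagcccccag
Col6a5, chr9:105960594-105960893, minus strand: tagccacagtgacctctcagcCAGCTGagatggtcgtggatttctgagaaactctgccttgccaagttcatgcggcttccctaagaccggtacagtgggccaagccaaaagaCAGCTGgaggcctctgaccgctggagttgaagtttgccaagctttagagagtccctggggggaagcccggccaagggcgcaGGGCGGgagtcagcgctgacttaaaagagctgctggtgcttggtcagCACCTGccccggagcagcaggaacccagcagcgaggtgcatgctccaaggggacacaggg

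The Col4a1 and Col4a2 windows share 78 bases, and the annotated genes themselves overlap by 22 bases. The Col4a1 window holds 1 match to CCAAT and 1 to GGGCGG, and the Col4a2 window holds 1 and 3. The GGGCGG match of Col4a1 and 1 of the 3 of Col4a2 are the same bases, within the shared stretch. The Lama5 window holds 4 matches to GGGCGG and 2 to CANCTG, and the Col6a5 window holds 1 and 3. RefSeq entries were found for 40 of the 55 genes, in 44 windows. Of these, 26 held GGGCGG, 14 CCAAT and 22 CANCTG, where the shares over all 32851 windows of the same length were 35.7%, 37.4% and 51.4%. The printed windows of Col4a1, Col4a2, Lama5 and Col6a5 were 74%, 73.7%, 72.7% and 60% G or C, where the median over all windows was 52.7%. The counts of matches were not adjusted for this content. These matches describe letters and not binding sites.

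Of the 55 genes, 44 passed the filter on low counts (34 collagens and 10 laminins). The other 11 were Col14a1, Col19a1, Col24a1, Col25a1, Col28a1, Col4a3, Col4a4, Col4a6, Col6a6, Col9a1 and Lamc3, which reached at most 17 counts, or 1.10 CPM, in a library. A gene was called when its adjusted p from edgeR was below 0.05. In the CBFA2T2 knockout 23 of the 44 genes rose and 3 fell, where 38.5% of all 16532 genes tested were called, 18.9% higher and 19.6% lower. The 26 calls were 59.1% of the genes tested. In 29 genes every knockout-labelled library was above every wild-type library and in 4 below, where the shares over all genes were 26.1% and 27.6%. The median log2 fold change was 1.00, against 0.01 over all genes. In the PRDM14-labelled libraries 18 rose and 2 fell, or 45.5%, where 29.9% of all genes were called, 14.6% higher and 15.3% lower. All knockout-labelled libraries were above wild type in 24 genes and below it in 3, where the shares over all genes were 22.1% and 23%. The median there was 0.69, against 0.02 over all genes. Both comparisons use the same wild-type libraries.

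Called higher in both were 16 genes, among them Col1a1, Col12a1, Col27a1, Col4a1, Col4a2, Lama4, Lama5 and Lamb2. Col18a1 and Col6a5 were called lower in both. A further 8 were called in the CBFA2T2 knockout alone and 2, Col6a3 and Col9a3, in the PRDM14-labelled libraries alone. An absent call does not show that the knockout-labelled groups differ. Without the second library of both knockout-labelled groups, which was the highest in fibroblast collagens, the counts were 22 higher and 3 lower in the CBFA2T2 knockout and 16 and 2 in the PRDM14-labelled libraries. Without wild-type replicate 1, 2 or 3 or CBFA2T2 knockout replicate 2 the count of higher genes in the CBFA2T2 knockout was 17. The count of higher genes in the PRDM14-labelled libraries fell to 10 without wild-type replicate 2 and to 10 without wild-type replicate 3. The count of lower genes in the CBFA2T2 knockout fell to 1 without wild-type replicate 2, without wild-type replicate 3 or without CBFA2T2 knockout replicate 1.

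**Figure D1:**
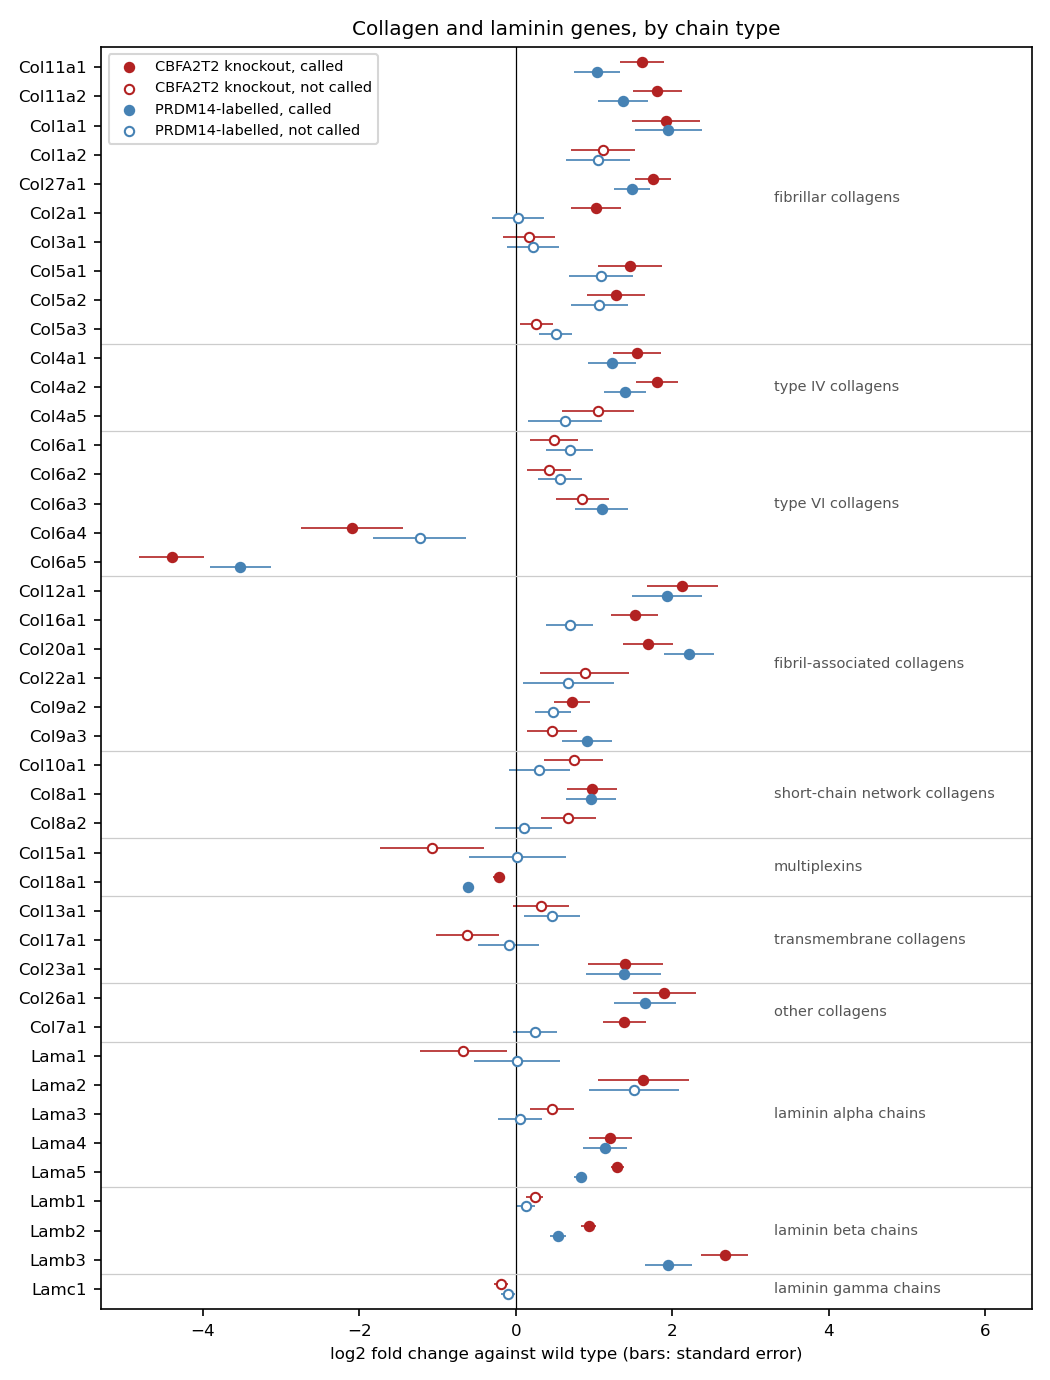
Log2 fold change against wild type of collagen and laminin genes tested, grouped by chain type, for the CBFA2T2 knockout (red) and the PRDM14-labelled libraries (blue); bars are standard errors and filled points are genes called at an adjusted p below 0.05. Most points lie to the right of 0, and Col6a5 lies farthest to the left, at -4.40 and -3.52.

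Per kilobase of exon, the order of the most abundant chains differed between the groups. In wild type Col18a1 led with 63.4 ± 1.39 CPM per kilobase (mean and SD of 3), close to Lamc1 at 62.4 ± 3.15, and these neighbours did not differ beyond their spread. Lama5 (28.9 ± 2.26), Lamb1 (22.7 ± 0.109) and Col1a1 (15.1 ± 2.01) followed, each apart from the next. In the CBFA2T2 knockout Lama5 had the highest mean, 71.3 ± 2.96, and Col1a1 (56.9 ± 26.3), Lamc1 (54.5 ± 0.708) and Col18a1 (54.4 ± 1.5) followed. Col1a1 did not differ from the others beyond its spread, and at 87.1 it was above Lama5 in replicate 2. In the PRDM14-labelled libraries Col1a1 (58.3 ± 26.5), Lamc1 (58.2 ± 7.45) and Lama5 (51.3 ± 3.00) came first, also within their spread. The order depends on the length used. With the longest transcript of each gene in wild type, Col18a1 (79.6 ± 1.74) stood clear of Lamc1 (67.7 ± 3.42), and Lamb1 (38.9 ± 0.188) came before Lama5 (28.9 ± 2.26).

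Among the fibrillar collagens Col1a1, Col27a1, Col11a1 and Col11a2 rose in both groups. Of 10 fibrillar genes tested, 7 rose in the CBFA2T2 knockout and 4 in the PRDM14-labelled libraries, with a median log2 fold change of 1.37 and 1.06. The shares called were 70% and 40%, against 38.5% and 29.9% over all genes. Of the 5 fibroblast chains, Col1a1, Col5a1 and Col5a2 were called in the CBFA2T2 knockout and Col1a1 in the PRDM14-labelled libraries. Summed over these 5, the level was 268, 224 and 221 CPM in wild type, 553, 1022 and 454 in the CBFA2T2 knockout and 421, 972 and 554 in the PRDM14-labelled libraries. Both groups lay above wild type without overlap, and replicate 2 was the highest in each. The mean was 2.84-fold and 2.73-fold that of wild type, or 2.11-fold and 2.05-fold without the second libraries. In bulk RNA, more cells of a type and more RNA per cell cannot be told apart.

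Col1a1 (chromosome 11, 94936224 to 94953042) encodes the alpha 1 chain, which is part of every type I collagen molecule. It was at 114, 91.1 and 91.3 CPM in wild type, 293, 572 and 257 in the CBFA2T2 knockout and 245, 578 and 325 in the PRDM14-labelled libraries. Every knockout-labelled library was above every wild-type library. The log2 fold change was 1.92 ± 0.43 (SE, adjusted p = 0.0132) in the CBFA2T2 knockout and 1.95 ± 0.43 (adjusted p = 0.016) in the PRDM14-labelled libraries, 3.78-fold and 3.86-fold. In the latter the adjusted p was 0.0562 without wild-type replicate 2 and 0.0612 without wild-type replicate 3.

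Col1a2 (chromosome 6, 4504814 to 4541543), the partner chain of type I collagen, was at 50.3, 49.5 and 48.8 CPM in wild type, 91.5, 163 and 67.5 in the CBFA2T2 knockout and 66.8, 154 and 86.8 in the PRDM14-labelled libraries. Neither group overlapped wild type, but their own libraries lay far apart, and the log2 fold changes of 1.12 ± 0.41 (adjusted p = 0.0713) and 1.05 ± 0.41 (adjusted p = 0.102) were not called. Without the second libraries of both knockout-labelled groups they were smaller and called, at 0.69 (adjusted p = 0.00311) and 0.63 (adjusted p = 0.00672). These libraries were the highest in Col1a2 (163 and 154 CPM) and were chosen after seeing the data, so a smaller spread was built in. With 1 library left out, Col1a2 was called in 2 of 9 fits for the CBFA2T2 knockout and in 1 of 9 for the PRDM14-labelled libraries. For the CBFA2T2 knockout the adjusted p was 0.0406 without CBFA2T2 knockout replicate 3 and 0.0394 without PRDM14-labelled replicate 2. For the PRDM14-labelled libraries it was 0.0433 without CBFA2T2 knockout replicate 2. Other fits of all 9 libraries called Col1a2 in the CBFA2T2 knockout by DESeq2 (adjusted p = 0.0284), limma-voom (0.0252), the replicate block (0.0217) and a filter at 5 CPM (0.0484). They called it in the PRDM14-labelled libraries by limma-voom (0.0472) and the replicate block (0.0338).

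The RNA of the type I chains was not in a fixed ratio. Col1a1 over Col1a2, each per kilobase of exon, was 4.30, 3.49 and 3.55 in wild type, 6.05, 6.63 and 7.20 in the CBFA2T2 knockout and 6.94, 7.10 and 7.09 in the PRDM14-labelled libraries. Both knockout-labelled groups lay above wild type without overlap. These ratios are given as a description, without a test. The means were 3.78 ± 0.451, 6.63 ± 0.574 and 7.04 ± 0.0906 (SD of 3). The size of the ratio depends on the length used: with the longest transcript of each gene it was 1.80 ± 0.215, 3.16 ± 0.273 and 3.35 ± 0.0432. Col1a1 over Col3a1 moved in the same way, from 4.73, 5.46 and 5.90 in wild type to 15.7, 19.3 and 17.3 in the CBFA2T2 knockout and 16.3, 19.0 and 15.8 in the PRDM14-labelled libraries.

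**Figure D2:**
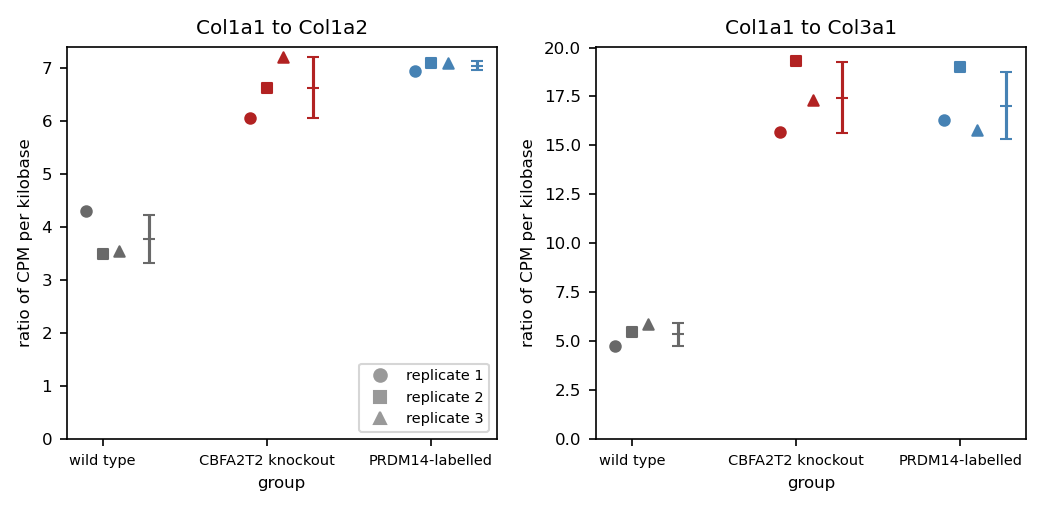
Ratio of Col1a1 to Col1a2 and of Col1a1 to Col3a1, each gene in CPM per kilobase of exon, in the 3 libraries of each group; bars are the mean and SD of 3. In both panels the libraries of both knockout-labelled groups lie above those of wild type, with group means of 3.78, 6.63 and 7.04 for Col1a2 as the partner.

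Col3a1 (chromosome 1, 45311538 to 45349706), the chain of type III collagen of soft tissues, was not called. It was at 36.0, 25.0 and 23.1 CPM in wild type, 27.9, 44.4 and 22.2 in the CBFA2T2 knockout and 22.4, 45.6 and 30.8 in the PRDM14-labelled libraries. The groups overlapped, and replicate 2 was again the highest of each knockout-labelled group. Its log2 fold changes were 0.17 ± 0.33 (adjusted p = 0.728) and 0.22 ± 0.33 (adjusted p = 0.655), and they were -0.17 and -0.08 without the second libraries.

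Type V collagen starts the assembly of type I fibrils. Col5a1 (chromosome 2, 27886425 to 28039514) was at 45.6, 43.0 and 40.5 CPM in wild type, 102, 175 and 78.5 in the CBFA2T2 knockout and 58.4, 140 and 76.5 in the PRDM14-labelled libraries. Col5a2 (chromosome 1, 45374321 to 45503282), which lies 24614 bases from Col3a1, was at 22.3, 15.8 and 17.7, at 38.4, 68.2 and 29.0 and at 28.3, 54.5 and 35.1 CPM. Both were higher in every knockout-labelled library than in any wild-type library. Col5a1 rose in the CBFA2T2 knockout (log2 fold change 1.46 ± 0.41, adjusted p = 0.0282) and had 1.09 ± 0.41 (adjusted p = 0.0897) in the PRDM14-labelled libraries. Col5a2 rose in the CBFA2T2 knockout (1.28 ± 0.37, adjusted p = 0.0269) and had 1.07 ± 0.37 (adjusted p = 0.0632) in the PRDM14-labelled libraries. The Col5a1 call was lost without wild-type replicate 1, 2 or 3 or CBFA2T2 knockout replicate 2 (adjusted p 0.0629 to 0.0858), and that of Col5a2 without wild-type replicate 2 or 3 (0.0799 and 0.0809). For the PRDM14-labelled libraries both were called without CBFA2T2 knockout replicate 2 (0.0457 and 0.00951), Col5a2 also without CBFA2T2 knockout replicate 3 (0.0327). They were also called there by DESeq2 (0.0382 for Col5a1 and 0.0279 for Col5a2), by limma-voom (0.0438 and 0.0417) and with the replicate block (0.0257 and 0.0335). The third type V chain, Col5a3, was at 9.04 ± 0.385 CPM in wild type and was not called (0.26 and 0.51).

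Fibrillar collagens of cartilage were scarcer. Col27a1 (chromosome 4, 63214004 to 63334991) went from 2.34, 4.0 and 3.94 CPM in wild type to 9.44, 13.0 and 11.6 in the CBFA2T2 knockout and 8.28, 8.99 and 11.0 in the PRDM14-labelled libraries. It rose by 1.75 ± 0.23 (adjusted p = 6.59e-05) and 1.48 ± 0.23 (adjusted p = 0.000377), and replicate 2 of the PRDM14-labelled libraries was not the highest. Col11a1 and Col11a2, below 9 CPM throughout, rose in both, with log2 fold changes of 1.04 to 1.81. Col11a1 in the PRDM14-labelled libraries was lost without wild-type replicate 2 (adjusted p = 0.0627) or 3 (0.0544) or PRDM14-labelled replicate 2 (0.0618). Col2a1 (chromosome 15, 97975602 to 98004695), the main collagen of cartilage, was at 8.68, 7.79 and 9.12 CPM in wild type, 15.4, 22.2 and 14.2 in the CBFA2T2 knockout and 5.42, 14.2 and 6.5 in the PRDM14-labelled libraries. The CBFA2T2 knockout did not overlap wild type (1.02 ± 0.32, adjusted p = 0.028), and the PRDM14-labelled libraries did (0.03 ± 0.33, adjusted p = 0.964). That call was lost without wild-type replicate 1, 2 or 3 or CBFA2T2 knockout replicate 2 (adjusted p 0.0667 to 0.0973), and the difference between the knockout-labelled groups was 1.00 ± 0.32 (adjusted p = 0.164).

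**Figure D3:**
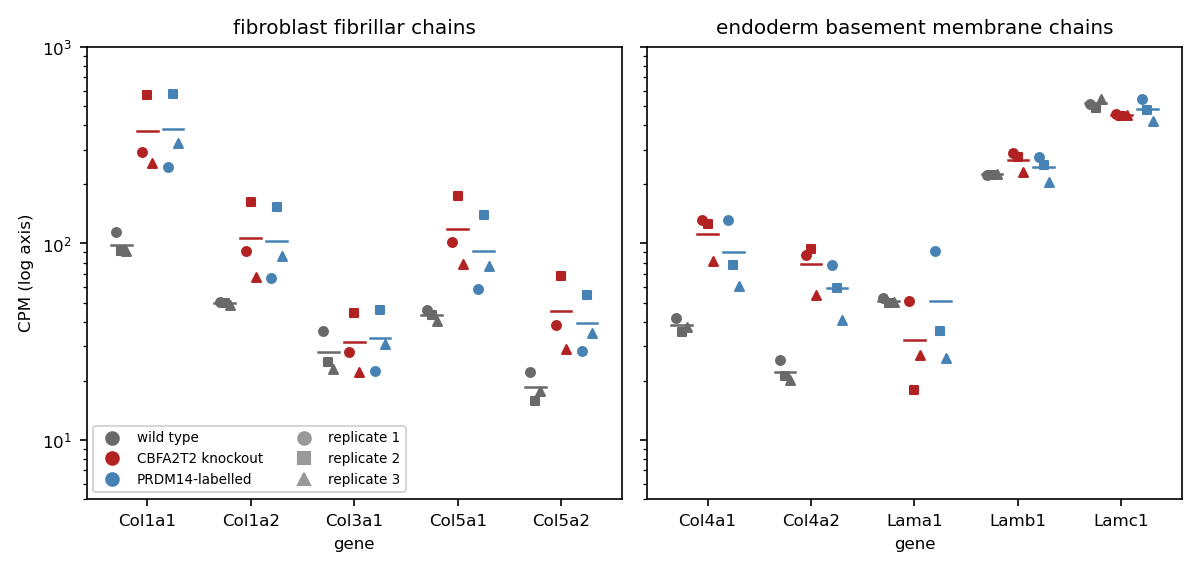
Level in CPM on a log axis of the 5 fibroblast fibrillar chains and the 5 endoderm basement membrane chains in each library; symbols give the replicate number and short lines the group mean. Replicate 2 (squares) is the highest of each knockout-labelled group in the 5 fibroblast chains, and replicate 1 (circles) the highest of each knockout-labelled group in Lama1, at 51.1 and 91.3 CPM.

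Among collagens that sit on the surface of fibrils, Col12a1 was the most abundant and rose in both groups. Of 6 fibril-associated genes tested, 4 rose in the CBFA2T2 knockout and 3 in the PRDM14-labelled libraries. The shares called were 66.7% and 50%, against 38.5% and 29.9% over all genes. Col12a1 (chromosome 9, 79598991 to 79718831), found with type I fibrils in tendon and fascia, was at 26.5, 21.8 and 23.5 CPM in wild type, 77.8, 164 and 73.3 in the CBFA2T2 knockout and 57.9, 139 and 77.9 in the PRDM14-labelled libraries. Neither group overlapped wild type, and replicate 2 was the highest of both, as for the 5 fibroblast chains. It rose by 2.13 ± 0.45 (log2, adjusted p = 0.00919) and 1.93 ± 0.45 (adjusted p = 0.0178), 4.38-fold and 3.81-fold. For the PRDM14-labelled libraries the adjusted p was 0.062 without wild-type replicate 2 and 0.0655 without wild-type replicate 3.

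Col16a1, found in skin and cartilage, was at 2.68, 2.80 and 4.28 CPM in wild type, 8.76, 12.5 and 6.67 in the CBFA2T2 knockout and 4.49, 7.17 and 4.13 in the PRDM14-labelled libraries. The CBFA2T2 knockout lay above wild type (1.52 ± 0.30, adjusted p = 0.00127), and the PRDM14-labelled libraries overlapped it (0.69 ± 0.30, adjusted p = 0.102). Col9a2, a chain of the cartilage fibril coat, was at 3.66, 6.20 and 5.04 CPM in wild type, 8.02, 8.87 and 7.30 in the CBFA2T2 knockout and 5.94, 8.44 and 6.0 in the PRDM14-labelled libraries. It rose in the CBFA2T2 knockout, without overlap (0.72 ± 0.23, adjusted p = 0.0226), and had 0.47 ± 0.23 in the PRDM14-labelled libraries (adjusted p = 0.139), which overlapped wild type. Its call was lost without wild-type replicate 1 or 3 or CBFA2T2 knockout replicate 2 (adjusted p 0.103, 0.0562 and 0.0775). Col20a1, below 4 CPM, rose in both (1.69 and 2.22), Col9a3 in the PRDM14-labelled libraries alone (0.91, adjusted p = 0.0449), and Col22a1 was not called. Col9a3 was lost without any 1 of wild-type replicates 1, 2 and 3, CBFA2T2 knockout replicate 3 and PRDM14-labelled replicates 2 and 3 (adjusted p 0.0544 to 0.15). Of the exon bases of Col9a3, 6.07% also belong to a gene on the opposite strand.

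The summed level of markers of fibroblasts, the usual feeder cells, was highest in the same libraries as that of these collagens. Summed over 24 listed markers, the level was 397 to 476 CPM in wild type, 712 to 1431 in the CBFA2T2 knockout and 575 to 1204 in the PRDM14-labelled libraries, and replicate 2 was the highest of each knockout-labelled group. Of the 22 markers tested, 6 rose and 1 fell in the CBFA2T2 knockout, and 5 rose and 1 fell in the PRDM14-labelled libraries. These are 31.8% and 27.3% called, near or below the 38.5% and 29.9% over all genes, and the median log2 fold changes were 0.44 and 0.24. The muscle-type actin Acta2 went from 37.2 ± 8.83 to 197 ± 91.0 and 157 ± 66.5 CPM, and the actin-binding Tagln from 19.1 ± 4.62 to 238 ± 104 and 112 ± 70.9. Acta2 and Tagln in the PRDM14-labelled libraries were lost without wild-type replicate 2 (adjusted p 0.0521 and 0.0684) or 3 (0.058 and 0.0731), and the log2 fold change of Tagln went from 2.53 to 1.87 without PRDM14-labelled replicate 2. Without Acta2 and Tagln the marker sum was 350 to 404 CPM in wild type, 463 to 800 in the CBFA2T2 knockout and 406 to 778 in the PRDM14-labelled libraries. Cnn1, Fbln1 and Pdgfrb were also called higher in both knockout-labelled groups, and Thy1 in the CBFA2T2 knockout alone. Mgp, a matrix protein of vessels and cartilage, fell in both groups (by 1.41 and by 1.49). Dcn, the fibril-binding decorin of fibroblasts, stayed low with overlapping groups at 1.80 ± 0.619, 1.59 ± 0.523 and 1.71 ± 0.707 CPM. Lum, Fap, Twist2 and Ccl2 were below 1 CPM in all groups. Cdh11 (0.06 and -0.04), Fstl1 (0.25 and 0.06) and Prrx1 (0.44 and 0.46) were not called. The part of feeder cells in the collagen result was not tested.

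**Figure D4:**
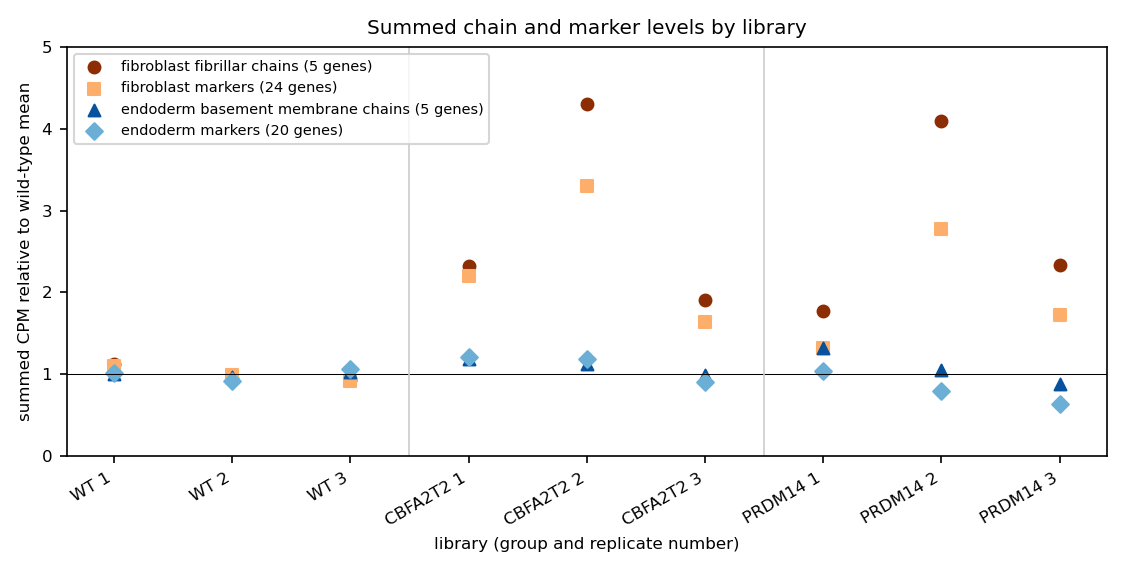
Summed CPM of the fibroblast fibrillar chains, the fibroblast markers, the endoderm basement membrane chains and the endoderm markers in each library, relative to the mean of the wild-type libraries. The fibroblast chains reach 4.30 and 4.08 in replicate 2 of the knockout-labelled groups, where the fibroblast markers reach 3.3 and 2.78. The endoderm chains, whose sum is mostly Lamc1 and Lamb1, stay between 0.886 and 1.32 in the knockout libraries.

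Among the basement membrane chains of endoderm, type IV collagen rose and the laminin chains Lama1, Lamb1 and Lamc1 were not called. The summed level of these 5 genes was 859, 821 and 877 CPM in wild type, 1013, 958 and 847 in the CBFA2T2 knockout and 1123, 902 and 755 in the PRDM14-labelled libraries. The groups overlapped, and the means were 1.10-fold and 1.09-fold that of wild type, where the fibroblast chains had 2.84-fold and 2.73-fold. Most of the sum was Lamc1 and Lamb1. Of the wild-type mean of 852 CPM, Lamc1 had 516 and Lamb1 225, where Col4a1 had 38.3 and Col4a2 22.3. The sum therefore says little about type IV collagen.

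Col4a1 (chromosome 8, 11198423 to 11312826) and Col4a2 (chromosome 8, 11312805 to 11449287) encode the type IV chains that are found in nearly all basement membranes, and their start regions are the shared pair printed above. Col4a1 was at 41.9, 35.4 and 37.5 CPM in wild type, 131, 125 and 81.0 in the CBFA2T2 knockout and 132, 77.4 and 60.7 in the PRDM14-labelled libraries. Col4a2 was at 25.6, 21.1 and 20.3, at 87.3, 94.0 and 54.6 and at 77.8, 59.2 and 40.9 CPM. Every knockout-labelled library was above every wild-type library for both genes, and in the PRDM14-labelled libraries replicate 1 was the highest, not replicate 2. Col4a1 rose by 1.55 ± 0.31 (log2, adjusted p = 0.00571) in the CBFA2T2 knockout and 1.23 ± 0.31 (adjusted p = 0.0199) in the PRDM14-labelled libraries. Col4a2 rose by 1.81 ± 0.27 (adjusted p = 0.000928) and 1.40 ± 0.27 (adjusted p = 0.00488). The Col4a1 call in the PRDM14-labelled libraries was lost without wild-type replicate 2 (adjusted p = 0.0646) or 3 (0.066) and without the second libraries of both knockout-labelled groups (0.0688, log2 fold change 1.33).

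The ratio of Col4a1 to Col4a2, per kilobase, was 1.45, 1.49 and 1.64 in wild type, 1.33, 1.18 and 1.32 in the CBFA2T2 knockout, below wild type without overlap, and 1.5, 1.16 and 1.32 in the PRDM14-labelled libraries, which overlapped it. Col4a5, a chain of kidney and lens basement membranes, was at 2.51 ± 0.911 CPM in wild type and was not called (1.05 ± 0.46, adjusted p = 0.0926, and 0.63 ± 0.47, adjusted p = 0.34).

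Lama1 (chromosome 17, 67697265 to 67822645), the alpha chain of the laminin of early endoderm, was at 52.5, 49.8 and 50.3 CPM in wild type. It was at 51.1, 17.9 and 27.2 in the CBFA2T2 knockout and 91.3, 35.8 and 26.0 in the PRDM14-labelled libraries. Replicate 1 was the highest of each knockout-labelled group and the groups overlapped. The log2 fold changes were -0.67 ± 0.56 (adjusted p = 0.396) and 0.01 ± 0.55 (adjusted p = 0.995). Without the first libraries of both knockout-labelled groups they were -1.18 (adjusted p = 0.000498) and -0.72 (adjusted p = 0.0106), both called. These first libraries were the highest in Lama1 and were chosen after seeing the data. Lower and tighter values were thus built in, and those calls do not show a fall. With 1 library left out, Lama1 was called in 0 of 9 fits in either comparison (lowest adjusted p 0.173 and 0.274).

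Lamb1 (chromosome 12, 31265234 to 31329644) and Lamc1 (chromosome 1, 153218922 to 153332786), the beta and gamma chains shared by most laminins, were abundant, with small fold changes. Lamb1 was at 224, 224 and 226 CPM in wild type, 288, 277 and 232 in the CBFA2T2 knockout and 277, 252 and 206 in the PRDM14-labelled libraries. Lamc1 was at 514, 491 and 543, at 456, 444 and 453 and at 545, 477 and 422 CPM. The CBFA2T2 knockout did not overlap wild type for either gene, lying above it for Lamb1 and below it for Lamc1. The log2 fold changes there were 0.24 ± 0.11 (adjusted p = 0.0856) and -0.19 ± 0.09 (adjusted p = 0.0886). The PRDM14-labelled libraries had 0.13 ± 0.11 (adjusted p = 0.397) and -0.10 ± 0.09 (adjusted p = 0.405). In the CBFA2T2 knockout Lamb1 was called without PRDM14-labelled replicate 1 (0.0478) or 3 (0.027) or CBFA2T2 knockout replicate 3 (0.0274), and Lamc1 without PRDM14-labelled replicate 1 (0.0382) or 3 (0.0474). Both were also called in a fit with wild type alone (0.0118 and 0.0242).

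Endoderm markers moved both ways. Their summed level over 20 genes was 176 to 204 CPM in wild type, 173 to 231 in the CBFA2T2 knockout and 123 to 199 in the PRDM14-labelled libraries. Of 16 tested, 4 rose and 1 fell in the CBFA2T2 knockout, and 3 rose and 3 fell in the PRDM14-labelled libraries, 31.2% and 37.5% called against 38.5% and 29.9% over all genes. Gata4, a transcription factor of primitive endoderm, was at 2.60 ± 0.386 CPM in wild type, 6.92 ± 1.35 in the CBFA2T2 knockout and 7.79 ± 3.05 in the PRDM14-labelled libraries. Sox7, another endoderm factor, fell from 2.32 ± 0.535 to 0.547 ± 0.216 (adjusted p = 0.021) and 0.632 ± 0.690 (adjusted p = 0.0398), at under 3 CPM. Its call in the CBFA2T2 knockout was lost without wild-type replicate 1 or 3 or CBFA2T2 knockout replicate 2 or 3 (adjusted p 0.0617 to 0.0856). That in the PRDM14-labelled libraries was lost in 7 of the 9 fits that left out 1 library (0.0506 to 0.117), and without PRDM14-labelled replicate 1 the log2 fold change was -3.20. Afp, Apoa1, Hnf4a and Ttr, markers of differentiated visceral endoderm, were below 1 CPM in all groups. Of 12 trophectoderm markers, 11 were tested, of which 7 rose and 1 fell in the CBFA2T2 knockout and 5 rose in the PRDM14-labelled libraries. These are 72.7% and 45.5% called, against 38.5% and 29.9% over all genes. The summed level of the trophectoderm markers was 132 to 153 CPM in wild type, 627 to 1452 and 238 to 499, again highest in replicate 2 of each knockout-labelled group. Of 8 endothelial markers, 6 were tested, and only Flt1 rose and only Tek fell in each knockout-labelled group. The share called was 33.3% in each, with median log2 fold changes of -0.19 and 0.15. The summed level of the endothelial markers was 99.4 to 114 CPM in wild type, 155 to 192 and 150 to 186. The part of such cells in the collagen and laminin results was not tested.

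Outside the Lama1, Lamb1 and Lamc1 set, the laminin chains mostly rose. Of 10 laminin genes tested, 6 rose in the CBFA2T2 knockout and 5 in the PRDM14-labelled libraries, with median log2 fold changes of 1.07 and 0.67. The shares called were 60% and 50%, against 38.5% and 29.9% over all genes.

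Lama5 (chromosome 2, 180176373 to 180225859), the alpha chain that laminins of pluripotent cells and of most adult epithelia carry, was at 354, 303 and 332 CPM in wild type. It was at 844, 814 and 777 CPM in the CBFA2T2 knockout and 607, 601 and 545 in the PRDM14-labelled libraries. The 3 groups did not overlap, and libraries of a group lay close together. Lama5 rose by 1.30 ± 0.08 (log2, adjusted p = 1.33e-07) in the CBFA2T2 knockout and 0.83 ± 0.08 (adjusted p = 6.39e-06) in the PRDM14-labelled libraries, 2.46-fold and 1.77-fold.

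Per kilobase of exon, Lama5 made up 81.4%, 80.4% and 81.8% of all alpha chain RNA in wild type. Its share was 91.1%, 94.0% and 92.7% in the CBFA2T2 knockout and 83.1%, 89.9% and 90.4% in the PRDM14-labelled libraries. Both knockout-labelled groups lay above wild type in every library. The summed alpha chain level went from 35.6 ± 2.58 CPM per kilobase to 77.0 ± 4.0 and 58.6 ± 5.57, and the gamma chain Lamc1 was at 62.4 ± 3.15, 54.5 ± 0.708 and 58.2 ± 7.45. In wild type Lamc1 exceeded the summed alpha chains, and in the CBFA2T2 knockout the alpha chains exceeded Lamc1 in every library. Lama5 over Lama1 was 5.17 to 5.73 in wild type, 14.1 to 38.6 in the CBFA2T2 knockout and 5.65 to 17.8 in the PRDM14-labelled libraries.

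**Figure D5:**
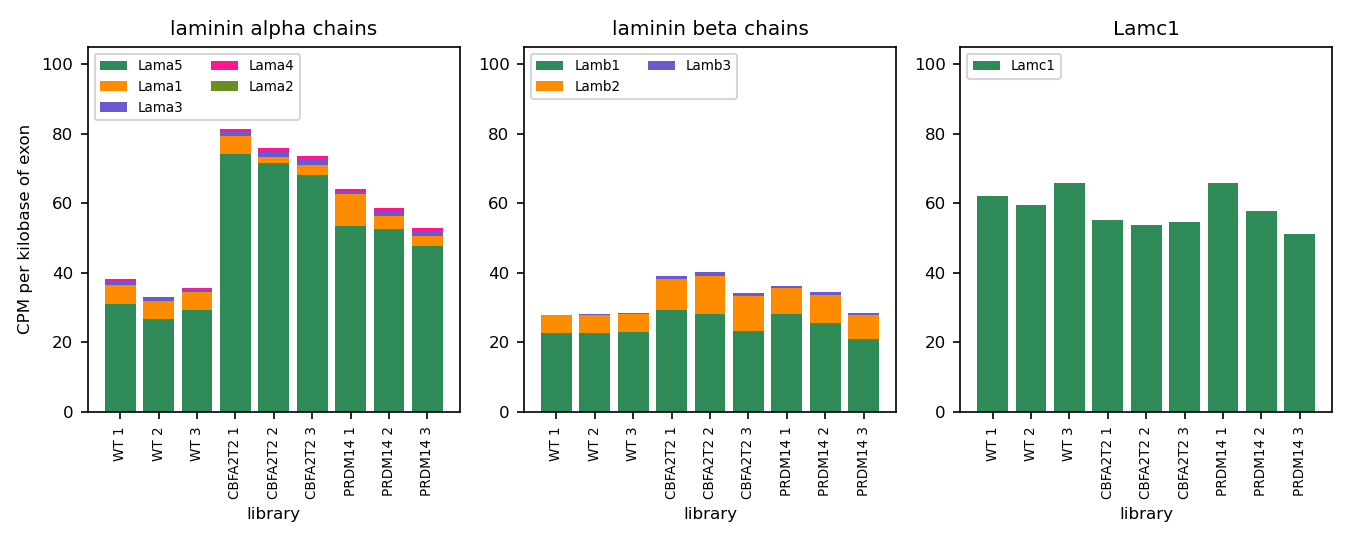
RNA of the laminin alpha chains, the beta chains and the gamma chain Lamc1 in CPM per kilobase of exon, stacked by gene, in each library; bars start at 0 and have no error bars because each is 1 library. The alpha chain bars rise from 35.6 on average in wild type to 77.0 in the CBFA2T2 knockout and 58.6 in the PRDM14-labelled libraries, most of it Lama5, and the Lamc1 bars lie between 51.0 and 65.8.

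Lamb2 (chromosome 9, 108479736 to 108490530), the beta chain of mature kidney and synaptic basement membranes, was at 31.5, 31.9 and 32.2 CPM in wild type. It was at 55.3, 66.8 and 60.2 in the CBFA2T2 knockout and 46.8, 49.6 and 42.1 in the PRDM14-labelled libraries. No library of a knockout-labelled group overlapped wild type. Those of the CBFA2T2 knockout lay above those of the PRDM14-labelled group, as in 8.44% of all genes. The difference between these groups, 0.40 ± 0.10 (log2, adjusted p = 0.0699), was not called. Against wild type Lamb2 rose by 0.93 ± 0.10 (adjusted p = 1.24e-05) and 0.54 ± 0.10 (adjusted p = 0.00134). Its share of beta chain RNA per kilobase went from 18.7% ± 0.142 to 26.6% ± 2.95 and 23.2% ± 1.62. The size of this share depends on the length used. The exon union and the longest transcript are 9917 and 5784 bases for Lamb1, and 6082 and 5629 for Lamb2.

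Lamb3 and Lama3 are chains of the laminin that anchors skin epithelium. Lamb3 is added here after its values were seen, since its mean level is low. It was at 1.09, 0.799 and 1.04 CPM in wild type, 5.42, 7.96 and 5.59 in the CBFA2T2 knockout and 2.86, 4.19 and 4.50 in the PRDM14-labelled libraries. It rose by 2.67 ± 0.30 (adjusted p = 1.56e-05) and 1.95 ± 0.30 (adjusted p = 0.000332). Lama3, its partner, overlapped wild type in both knockout-labelled groups at 11.1 ± 1.40, 15.4 ± 4.24 and 11.6 ± 4.76 CPM and was not called (0.46 and 0.05).

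Lama4 (chromosome 10, 38965515 to 39110188), the alpha chain of vessel walls and mesenchyme, was at 5.77, 4.30 and 3.94 CPM in wild type, 10.3, 14.1 and 8.07 in the CBFA2T2 knockout and 7.34, 14.3 and 9.38 in the PRDM14-labelled libraries. Neither group overlapped wild type, and replicate 2 was the highest of each knockout-labelled group, as for the fibroblast collagens. It rose by 1.21 ± 0.28 (adjusted p = 0.00409) and 1.14 ± 0.28 (adjusted p = 0.00822). Lama2, the alpha chain of muscle, stayed below 2 CPM and was called in the CBFA2T2 knockout (1.63 ± 0.58, adjusted p = 0.038). That call was lost without any 1 of wild-type replicates 1, 2 and 3 and CBFA2T2 knockout replicates 1 and 2 (adjusted p 0.0577 to 0.211), and 3.86% of its exon bases also belong to a gene on the opposite strand.

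A few chains fell. Col6a5 (chromosome 9, 105856078 to 105960643), a later-found chain of the beaded microfibrils of type VI collagen, was at 12.6, 16.8 and 15.6 CPM in wild type. It was at 0.678, 0.671 and 0.776 in the CBFA2T2 knockout and 2.51, 0.729 and 0.625 in the PRDM14-labelled libraries, with 10 to 43 counts per library. Neither group overlapped wild type, and PRDM14-labelled replicate 1 kept the most. It fell by 4.40 ± 0.42 (log2, adjusted p = 7.93e-06) and by 3.52 ± 0.39 (adjusted p = 3.7e-05), 21.1-fold and 11.5-fold, and the log2 fold change in the latter was -4.45 without PRDM14-labelled replicate 1. Its neighbour Col6a4, 28810 bases away on the same strand and named after its values were seen, was at 1.26 ± 0.129 CPM in wild type, 0.285 ± 0.161 in the CBFA2T2 knockout (-2.09 ± 0.65, adjusted p = 0.021) and 0.534 ± 0.444 in the PRDM14-labelled libraries (-1.23 ± 0.60, adjusted p = 0.142). The Col6a4 call was lost without wild-type replicate 2 (0.0621) or 3 (0.0577) or CBFA2T2 knockout replicate 1 (0.0837). Col6a6, 27917 bases to the other side, was below the filter.

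The core chains of type VI collagen, which fibroblasts make, had positive fold changes, and 1 of them was called. Col6a3 (chromosome 1, 90765923 to 90843971) was at 16.8, 14.9 and 13.2 CPM in wild type, 20.2, 38.4 and 22.1 in the CBFA2T2 knockout and 22.0, 47.5 and 26.8 in the PRDM14-labelled libraries. It lay above wild type without overlap, with replicate 2 highest, and rose in the PRDM14-labelled libraries (1.10 ± 0.34, adjusted p = 0.038) but was not called in the CBFA2T2 knockout (0.85 ± 0.34, adjusted p = 0.0771). The call was lost without any of wild-type replicates 1, 2 and 3 or PRDM14-labelled replicates 2 and 3 (adjusted p 0.0616 to 0.118). It was also lost without a filter on low counts (0.107). The CBFA2T2 knockout was called without PRDM14-labelled replicate 2 (0.0155), with the replicate block (0.0106) and in a fit with wild type alone (0.0235). Col6a1 (0.49 and 0.69) and Col6a2 (0.43 and 0.57) were not called.

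Col18a1 (chromosome 10, 77052178 to 77166548) is the core protein of a basement membrane proteoglycan and the source of endostatin. It was at 437, 444 and 456 CPM in wild type, 382, 372 and 393 in the CBFA2T2 knockout and 270, 312 and 293 in the PRDM14-labelled libraries. The 3 groups did not overlap. It fell by 0.22 ± 0.07 (log2, adjusted p = 0.0235) in the CBFA2T2 knockout and by 0.61 ± 0.07 (adjusted p = 3.65e-05) in the PRDM14-labelled libraries, 1.17-fold and 1.53-fold. The smaller fall was not called without wild-type replicate 2 (0.0734) or 3 (0.0976), without CBFA2T2 knockout replicate 1 (0.0684) or 2 (0.0974), or without the second libraries of both knockout-labelled groups (0.0523). Its relative Col15a1, near 1 CPM in wild type, was not called (-1.07 and 0.02).

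Among the remaining collagens, Col7a1 (chromosome 9, 108953586 to 108984875), which forms the anchoring fibrils under skin, was at 5.88, 4.90 and 4.49 CPM in wild type. It was at 12.7, 19.2 and 8.15 in the CBFA2T2 knockout and 6.06, 7.29 and 4.94 in the PRDM14-labelled libraries. The CBFA2T2 knockout lay above both other groups, and the PRDM14-labelled libraries overlapped wild type. It rose in the CBFA2T2 knockout (1.39 ± 0.28, adjusted p = 0.00159), had 0.25 ± 0.28 (adjusted p = 0.535) in the PRDM14-labelled libraries, and the difference between the knockout-labelled groups was 1.14 ± 0.27 (adjusted p = 0.0646).

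Col8a1, a short-chain collagen of vessel walls, was at 5.43, 6.20 and 4.56 CPM in wild type, 10.8, 13.7 and 6.99 in the CBFA2T2 knockout and 6.82, 15.7 and 8.88 in the PRDM14-labelled libraries. No knockout-labelled library fell to the wild-type range, and Col8a1 rose in both (0.98 ± 0.32, adjusted p = 0.0303, and 0.96 ± 0.32, adjusted p = 0.0398). Its call depended on single libraries. That in the CBFA2T2 knockout was lost without any 1 of wild-type replicates 1, 2 and 3 and CBFA2T2 knockout replicates 1 and 2 (adjusted p 0.0542 to 0.116). That in the PRDM14-labelled libraries was lost without any 1 of wild-type replicates 1, 2 and 3, CBFA2T2 knockout replicate 1 and PRDM14-labelled replicates 2 and 3 (0.0513 to 0.166). The other short-chain genes, Col8a2 and Col10a1, were not called. Of the membrane-spanning collagens Col23a1 rose in both (1.40 and 1.38), at about 1 CPM in the knockout-labelled groups, and Col13a1 and Col17a1 were not called. The Col23a1 call in the CBFA2T2 knockout was lost without wild-type replicate 1 or 2 or CBFA2T2 knockout replicate 1 or 2 (adjusted p 0.0815 to 0.111), and that in the PRDM14-labelled libraries in all 9 fits that left out 1 library (0.0516 to 0.151). Col26a1 rose in both (1.90 and 1.65), from 0.987 ± 0.344 CPM in wild type.

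The machinery that modifies and assembles collagen moved in part. Of 28 processing genes tested, 14 rose and 2 fell in the CBFA2T2 knockout, with a median log2 fold change of 0.39, and 10 rose and 2 fell in the PRDM14-labelled libraries, with a median of 0.31. These are 57.1% and 42.9% called, against 38.5% and 29.9% over all genes. P4ha1, a catalytic subunit of the prolyl hydroxylase that makes the helix stable, went from 45.9 ± 6.11 CPM to 97.9 ± 13.1 (1.09 ± 0.12, adjusted p = 1.68e-05) and 115 ± 10.9 (1.32 ± 0.12, adjusted p = 6.39e-06). P4ha2, its relative, rose by 0.85 ± 0.13 (adjusted p = 0.000252) and 1.14 ± 0.13 (adjusted p = 3.77e-05). Plod2, a lysyl hydroxylase used for cross-links, rose by 0.51 ± 0.08 (adjusted p = 0.00015) and 0.84 ± 0.08 (adjusted p = 5.12e-06). Pcolce, which speeds the removal of the C-terminal propeptide, fell from 108 ± 2.88 CPM to 59.7 ± 1.36 (-0.86 ± 0.10, adjusted p = 1.55e-05) and 71.3 ± 10.1 (-0.60 ± 0.09, adjusted p = 0.000376). Adamts14, a protease for the N-terminal propeptide, fell from 18.8 ± 0.227 CPM to 6.51 ± 1.00 (-1.53 ± 0.21, adjusted p = 7.87e-05) and 8.19 ± 2.49 (-1.20 ± 0.20, adjusted p = 0.000681).

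Of 14 other basement membrane components tested, 7 rose in the CBFA2T2 knockout and 4 in the PRDM14-labelled libraries, with medians of 0.52 and 0.22. The shares called were 50% and 28.6%, the second close to the 29.9% over all genes. Frem2 and Fras1, partners in a complex that joins epithelium to dermis, were among them. Frem2 went from 22.2 ± 3.56 CPM to 59.5 ± 4.91 (1.41 ± 0.14, adjusted p = 5.68e-06) and 59.3 ± 9.03 (1.41 ± 0.14, adjusted p = 8.77e-06). Fras1 rose by 2.17 ± 0.26 (adjusted p = 7.75e-05) and 1.60 ± 0.27 (adjusted p = 0.000955), and Tinagl1, a matrix protein that binds laminin and integrins, by 2.31 ± 0.31 (adjusted p = 0.000229) and 1.61 ± 0.32 (adjusted p = 0.00317). Nid1 and Nid2, the nidogens that link laminin to type IV collagen, were not called (-0.09 and -0.13 in the CBFA2T2 knockout, 0.14 and 0.06 in the PRDM14-labelled libraries).

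Of 12 receptor genes tested, 3 rose and 2 fell in the CBFA2T2 knockout and 3 fell in the PRDM14-labelled libraries, with medians of 0.11 and -0.02. The shares called, 41.7% and 25%, were close to the 38.5% and 29.9% over all genes. Itga1, the integrin subunit that binds type IV collagen, fell from 6.55 ± 1.75 CPM to 0.935 ± 0.354 (-2.82 ± 0.34, adjusted p = 2.91e-05) and 0.944 ± 0.142 (-2.77 ± 0.34, adjusted p = 5.23e-05). Itga6, a subunit of laminin receptors, fell by 0.54 ± 0.10 (adjusted p = 0.000677) and by 0.38 ± 0.10 (adjusted p = 0.00974). The collagen receptor kinase Ddr1 rose in the CBFA2T2 knockout (0.93 ± 0.18, adjusted p = 0.00232), and the laminin receptor Dag1 fell in the PRDM14-labelled libraries (by 0.25 ± 0.08, adjusted p = 0.0265). Itga6 in the PRDM14-labelled libraries was lost without wild-type replicate 2 (0.0508), and Dag1 without wild-type replicate 1, 2 or 3 or PRDM14-labelled replicate 3 (0.0518 to 0.129).

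Of 11 matrix proteases and inhibitors tested, 4 rose in the CBFA2T2 knockout and 3 in the PRDM14-labelled libraries, with medians of 0.56 and 0.40. The shares called, 36.4% and 27.3%, were close to those over all genes, 38.5% and 29.9%. The inhibitor Timp3 went from 20.9 ± 2.28 CPM to 99.0 ± 44.5 (2.24 ± 0.48, adjusted p = 0.00996) and 86.1 ± 44.7 (2.04 ± 0.48, adjusted p = 0.0188). The membrane protease Mmp15 rose by 0.74 ± 0.17 (adjusted p = 0.00353) and 0.64 ± 0.17 (adjusted p = 0.0112), and Mmp14 by 0.56 ± 0.19 in the CBFA2T2 knockout (adjusted p = 0.0426). The inhibitor Timp1 rose by 0.35 ± 0.13 (adjusted p = 0.046) and 0.49 ± 0.13 (adjusted p = 0.0111). In the CBFA2T2 knockout Mmp14 was lost without wild-type replicate 1, 2 or 3 or CBFA2T2 knockout replicate 2 or 3 (0.077 to 0.142), and Timp1 without wild-type replicate 1, 2 or 3 or CBFA2T2 knockout replicate 1 or 2 (0.0572 to 0.192). In the PRDM14-labelled libraries Timp3 was lost without wild-type replicate 2 (0.0631) or 3 (0.0707), Mmp15 without wild-type replicate 2 (0.0536) and Timp1 without wild-type replicate 3 (0.0623).

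Set against each other, the knockout-labelled groups differed in 2 of the 44 genes, Lama5 and Col18a1, where 0.853% of all genes were called. Both were higher in the CBFA2T2 knockout, by 0.48 ± 0.08 (log2, adjusted p = 0.0126) for Lama5 and 0.39 ± 0.07 (adjusted p = 0.0253) for Col18a1, and their libraries did not overlap between the knockout-labelled groups. For Lama5 this means a larger rise over wild type in the CBFA2T2 knockout, and for Col18a1 a smaller fall. In 8 genes the CBFA2T2 knockout lay wholly above the PRDM14-labelled libraries and in 1 below, where the shares over all genes were 8.44% and 9.4%. At an unadjusted p below 0.05, 8 of the 44 genes were higher in the CBFA2T2 knockout and 0 lower. Over all 16532 genes these counts were 1136 and 1359. Both calls were lost without CBFA2T2 knockout replicate 1 (adjusted p 0.0699 for Lama5 and 0.0851 for Col18a1) and without CBFA2T2 knockout replicate 2 (0.0548 and 0.0771), also in a fit of the knockout-labelled groups alone (0.0648 and 0.119), and Col18a1 was also lost without wild-type replicate 2 (0.0603). The fibroblast chains were alike in mean, from -0.06 ± 0.33 for Col3a1 to 0.38 ± 0.39 for Col5a1, with standard errors too wide to show that they were equal.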

How the data were processed

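The deposited files hold raw counts per gene, 1 file a library, from poly(A) RNA in strand-specific dUTP libraries per the labels' protocols. Bowtie (no version) and mm9 are named in the submitters' processing notes, but gene positions are on GRCm38: GENCODE M21 holds 32860 of the 33233 gene identifiers, and 25661 (78.1%) have the same start and end there. For the read counter, its strand option and the annotation, names were not given in the sources used, so reads of overlapping genes on opposite strands may be shared. In the files 27 symbols are stored as dates. No pair of libraries agreed within sampling noise.

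The 9 counts columns were fitted together in edgeR 4.0.16 (R 4.3.3; filterByExpr kept 16532 genes, TMM scaling, robust quasi-likelihood test, Benjamini-Hochberg adjustment over all 16532, threshold 0.05). Every adjusted p in the text is from that test unless another tool is named, SE is the size of the log2 fold change divided by the square root of F, and SD is over 3 libraries. CPM is per 1000000 counts of the kept genes, after scaling, and CPM per kilobase divides by the union of exons in GENCODE M21. Total counts of 10309196 to 20129490 set the counting precision. The test was checked on simulated data. Collagen and laminin genes called in any comparison with a mean of at least 5 CPM, and the fibroblast and endoderm chains, were named with all values, and up to 3 genes by adjusted p were named in each list of processing genes, basement membrane components, receptors and proteases. Results that needed a withheld item are not reported here. Genes outside this rule were named after their values were seen. Members and lists were chosen with earlier results of these data known. Of 33 processing symbols 28 were found, since some are older names. The alternatives were DESeq2 1.42.0 size factors and Wald test, limma-voom 3.58.1, other filters, the compared groups alone, a replicate block, each library left out, the longest transcript as length and the library total as scale.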

Additional observations from a re-analysis of the deposited data

Results flagged for a closer look

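The fold changes over wild type of 2 genes differed between the knockout-labelled groups by edgeR's test of the difference. That of Lama5 was 0.48 higher on the log2 scale in the CBFA2T2 knockout than in the PRDM14-labelled libraries (adjusted p = 0.0126), and that of Col18a1 was 0.39 higher (adjusted p = 0.0253). In both genes the 3 libraries of the CBFA2T2 knockout lay above the 3 PRDM14-labelled libraries. Both calls were lost without CBFA2T2 knockout replicate 1 or 2. They were also lost in an edgeR fit of the knockout-labelled groups alone (adjusted p 0.0648 for Lama5 and 0.119 for Col18a1).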

How the results depend on the processing

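Against wild type, no called fold change of a collagen or laminin gene called and at a mean of at least 5 CPM changed sign under the 18 alternatives. In the CBFA2T2 knockout 12 of 18 such calls were never lost, among them Col12a1, Col16a1, Col1a1, Col27a1, Col4a1, Col4a2, Col6a5, Col7a1, Lama4, Lama5 and Lamb2. In the PRDM14-labelled libraries 8 of 13 were never lost, among them Col18a1, Col27a1, Col4a2, Col6a5, Lama4, Lama5 and Lamb2. With each library left out, the collagen and laminin genes called higher numbered 17 to 26 in the CBFA2T2 knockout and 10 to 23 in the PRDM14-labelled libraries, and those called lower 1 to 4 and 2 to 3. Over all genes the counts were 2434 to 3357 higher and 2338 to 3472 lower, and 1680 to 2454 and 1681 to 2531. Without a filter on low counts, 19 collagen and laminin genes were called higher in the CBFA2T2 knockout and 13 in the PRDM14-labelled libraries. That fit lost Col2a1, Col5a1, Col5a2 and Col23a1 in the former. In the latter it lost Col4a1, Col6a3, Col8a1, Col9a3 and Col23a1. A filter at a mean of 5 CPM leaves no value for the scarcer genes.

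The comparison between the knockout-labelled groups depended most on the settings. With each library left out it gave 9 to 325 genes higher and 15 to 272 lower, and 0 to 5 collagen and laminin genes higher. Over all genes it gave 129 higher and 199 lower without a filter, 262 and 340 by DESeq2's Wald test, 14 and 10 with the knockout-labelled groups fitted alone and 19 and 29 without their first libraries. By limma-voom 91 were higher, and without the second libraries 37 were lower. The collagen and laminin genes higher there were 5 by the Wald test. They were 0 in edgeR with the knockout-labelled groups alone and 0 without the first libraries of these groups. The fit of all 9 libraries gave 2, and 8 at an unadjusted p below 0.05, where 1136 of all 16532 genes were higher.

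Whether replicate numbers pair the samples was not settled. Deviations of same-numbered libraries correlated at 0.06 to 0.30 between the knockout-labelled groups and at -0.01 to 0.10 with wild type. Between the knockout-labelled groups 6 of 6 libraries matched best with their own number, and 4 of 6 did for each of them with wild type. The main fit has no replicate block. With the replicate number as a block, 180 genes were higher and 212 lower between the knockout-labelled groups, and 5 collagen and laminin genes higher. The block also called Col1a2 and Col6a3 in the CBFA2T2 knockout and Col1a2, Col5a1 and Col5a2 in the PRDM14-labelled libraries, and lost Lama2 in the former, Col9a3 in the latter and Col23a1 in both.

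Signs turned in genes that were not called. Col2a1 in the PRDM14-labelled libraries ran from -0.52 to 0.28 with 1 library left out, and was -0.12 by limma-voom, -0.09 with the block, -0.03 without wild-type replicate 2 and -0.52 both without PRDM14-labelled replicate 2 and without the second libraries. Lama1 there ran from -0.72 to 0.33, and was -0.20 by limma-voom, -0.20 with the block, -0.00 without wild-type replicate 2 and -0.72 both without PRDM14-labelled replicate 1 and without the first libraries. Col3a1 ran from -0.16 to 0.40 in the CBFA2T2 knockout and from -0.08 to 0.45 in the PRDM14-labelled libraries. It was -0.16 without CBFA2T2 knockout replicate 2 and -0.17 without the second libraries in the CBFA2T2 knockout, and -0.08 under both in the PRDM14-labelled libraries. For all of these the cause was not tested. Scaling by the library total moved neither sum of chains by more than its SD. Leaving out both second or both first libraries was chosen after seeing the data.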

Other observations

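Among the processing genes outside the rule for naming, 3 were looked at after their values were seen, because they act on collagen. Lox, the lysyl oxidase that cross-links collagen and elastin, was at 33.8, 25.4 and 23.9 CPM in wild type, 107, 196 and 99.7 in the CBFA2T2 knockout and 87.9, 238 and 135 in the PRDM14-labelled libraries. As in Col1a1, replicate 2 was the highest of each knockout-labelled group, and no knockout-labelled library overlapped wild type. Its log2 fold changes were 2.27 ± 0.46 (SE, adjusted p = 0.00836 by edgeR) and 2.46 ± 0.46 (adjusted p = 0.00816). Loxl2, an oxidase that acts on type IV collagen, was at 43.0, 29.9 and 32.1 CPM, at 77.8, 128 and 91.9 and at 85.2, 154 and 96.1 (1.5, adjusted p = 0.00407, and 1.67, adjusted p = 0.00331, by edgeR). Serpinh1, the collagen chaperone of the endoplasmic reticulum, was at 98.5, 80.7 and 93.0 CPM, at 224, 283 and 170 and at 169, 204 and 184 (1.32, adjusted p = 0.000143, and 1.03, adjusted p = 0.000976, by edgeR). The calls of these 3 genes in both knockout-labelled groups held in 9 of 9 fits that left out 1 library. They do not stand for the whole list. Of the other oxidases of the family, Loxl1 and Loxl3 were called in neither group and Loxl4 in the CBFA2T2 knockout alone. Of the 28 processing genes tested, 12 were not called in the CBFA2T2 knockout and 16 in the PRDM14-labelled libraries, with Plod1, P3h1, Crtap, Fkbp10 and Colgalt1 called in neither.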
